A study of Homo sapiens with 14 samples.

Results

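The integrated stress response genes described here are 10 genes taken by name: ATF4, DDIT3, ATF3, TRIB3, SESN2, CHAC1, ASNS, PCK2, WARS1 and AARS1. They were found by gene symbol in the platform annotation of the arrays, where WARS1 and AARS1 may stand under the older names WARS and AARS. A probe set with a name was found for 9 of the 10 genes, and 10 probe sets in all, since WARS1 had 2 of them. CHAC1 was not analysed here. These were 9 of the 14884 genes, and 10 of the 16098 probe sets, that the annotation tied to a single gene. The list was drawn up by name, with earlier results of these data known.

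The arrays came from LNCaP, an established human prostate cancer cell line that expresses the androgen receptor, and they measured the effect of lowering CTCF, a zinc finger protein that binds DNA and shapes chromosome loops. Cells received a pool of siRNAs against CTCF at 20 nM or a non-targeting siRNA pool at 20 nM (control siRNA), and RNA was taken after 24, 72 or 144 h. Cells of the 144 h groups were split at 72 h and transfected a further time. Untransfected cells received no siRNA and no time is labelled for them. Each untransfected array has a code in its description that starts with 72. Whether they were harvested with the 72 h groups is not given in the sources used here. Each of these 7 groups held 2 arrays, 14 in all. No group carried a stable genetic change, all cells were of 1 line, and knockdown by siRNA is transient and partial. Against untransfected cells, the siRNA, the transfection itself, the time in culture and the density of the cells cannot be told apart. Between CTCF and control siRNA at a shared time, only the siRNA pool differs by label.

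In the integrated stress response, several kinases sense amino acid shortage, unfolded protein in the endoplasmic reticulum, double-stranded RNA or mitochondrial trouble and phosphorylate the translation factor eIF2. General protein synthesis then slows while the transcription factor ATF4 is translated more, and ATF4 induces genes for amino acid synthesis, amino acid transport and tRNA charging together with further regulators such as DDIT3 (also called CHOP). Much of the control of ATF4 lies in its translation, which an array of mRNA does not measure.

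ATF4 binds composite C/EBP-ATF elements whose core reads TGATGNAA, so the promoters of the members were searched for it on both strands. The windows held 250 bases before and 50 after each annotated start site (RefSeq, GRCh38.p14), and all 10 genes had at least 1 window. The core was found in 4 of the 10 genes, AARS1, ASNS, ATF3 and CHAC1, against 4.457% of 27305 genes with a window. The narrower form TGATGCAA, which is contained in TGATGNAA, was found in AARS1 and CHAC1 and in 1.08% of all genes. The cAMP response element TGACGTCA was found in 0 of the 10 and in 2.249% of all genes. The 3 stretches below belong to the measured members with a match and are shown with 30 bases on each side, with the match in capitals. In AARS1 the match reads on the opposite strand, where TTGCATCA is the reverse complement of TGATGCAA.
ASNS (chr7:97872439-97872506, minus strand, match from base -68): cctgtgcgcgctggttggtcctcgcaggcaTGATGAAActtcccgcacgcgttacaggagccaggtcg
AARS1 (chr16:70289656-70289723, minus strand, match from base -187): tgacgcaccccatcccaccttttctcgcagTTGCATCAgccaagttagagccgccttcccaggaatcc
ATF3 (chr1:212565186-212565253, plus strand, match from base -191): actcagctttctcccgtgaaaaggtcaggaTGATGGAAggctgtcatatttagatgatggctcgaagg
The ASNS and ATF3 stretches each belong to the upstream of 2 listed start sites, and the window of the downstream site had no match. The members were listed by name as genes of this response, so a share of matches above that of all genes may follow from the choice and is no test. A match of letters is a description of the sequence and does not show binding.

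Values are the deposited log2 expression values (robust multi-array average, RMA), on which a difference of 1 is a doubling or halving of signal. Array medians over all rows lay between 3.67 and 3.72, and replicate arrays correlated between r = 0.992 and 0.994. CTCF itself lay between 6.73 and 7.46 on the 6 CTCF siRNA arrays and between 8.98 and 9.19 on the 6 control siRNA arrays, a fall of 76.1% at 24 h, 69.7% at 72 h and 78.8% at 144 h (limma adjusted p at most 0.00618). Luminal markers of the prostate were read at 10.4 (FOLH1), 8.74 (KLK2), 8.66 (KRT18), 8.18 (KLK3), 7.26 (HOXB13) and 5.55 (KRT8) on average. The basal markers KRT5, KRT14 and KRT15 were read at 2.38, 3.11 and 3.33. KRT8 thus lay below the stromal marker VIM, at 6.11, and the immune cell marker CD68, at 5.70. One array stood apart in these genes: control siRNA 72 h replicate 2. All 9 members were higher on it than on replicate 1 of the same group, by a median of 0.55, against medians between -0.05 and 0.22 in the other 6 groups. DDIT3 differed most, by 1.83, the largest rise of any of the 16098 probe sets between these 2 arrays. The 2 arrays correlated at r = 0.992, and 60 probe sets lay more than 1 apart, against 30 to 50 in the other groups. Member differences that involve control siRNA at 72 h directly are therefore given with and without replicate 2. The array was singled out by these same members, so a shift of their differences without it follows from that choice and is a description.

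Among the transcription factors, ATF4, the factor that the pathway works through, was at 8.41 and 8.45 at 24 h, 8.64 and 8.50 at 72 h and 8.33 and 8.36 at 144 h in CTCF siRNA cells. It was at 8.27 and 8.48, 8.59 and 8.93, and 8.57 and 8.53 at the same times in control siRNA cells, and at 9.03 and 9.02 in untransfected cells. All 12 siRNA arrays thus lay below both untransfected arrays. Over all siRNA groups ATF4 fell by 0.52 ± 0.10 on the log2 scale (SE, 12 arrays against 2, limma adjusted p = 0.0072).

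DDIT3, a C/EBP family factor that is induced downstream of ATF4 and promotes cell death under lasting stress, had the widest range. In CTCF siRNA cells it was at 6.10 and 6.01 at 24 h, 4.86 and 5.09 at 72 h and 4.38 and 4.60 at 144 h. In control siRNA cells it was at 5.99 and 5.71, 4.85 and 6.67, and 4.82 and 4.67 at the same times, and in untransfected cells at 6.73 and 7.19. All siRNA arrays lay below both untransfected arrays, and control siRNA 72 h replicate 2, at 6.67, came closest to them. The order of the group means from the top was untransfected, CTCF siRNA 24 h, control siRNA 24 h, control siRNA 72 h, CTCF siRNA 72 h, control siRNA 144 h and CTCF siRNA 144 h. The control siRNA 72 h group (5.76 ± 1.29, SD, n = 2) cannot be placed among its neighbours, since its 2 arrays spanned most of that order. Against untransfected cells DDIT3 fell by 2.47 ± 0.38 in CTCF siRNA cells at 144 h, a 5.53-fold lower signal (limma adjusted p = 0.002), and by 2.22 ± 0.38 in control siRNA cells at 144 h (limma adjusted p = 0.0103). The second of these calls was lost without control siRNA 144 h replicate 2, at -1.94 (limma adjusted p = 0.116), and without either untransfected array, at -2.30 and -2.13 (limma adjusted p = 0.0707 and 0.0692).

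ATF3, a stress-induced factor of the same bZIP class that acts on promoters with ATF and CRE sites, differed between the siRNA arrays at 24 h and the later ones. It was at 7.57 and 7.37 at 24 h, 5.52 and 5.44 at 72 h and 4.90 and 5.49 at 144 h in CTCF siRNA cells. It was at 7.16 and 7.28, 5.47 and 5.97, and 5.25 and 5.03 at the same times in control siRNA cells, and at 6.38 and 6.75 in untransfected cells. The 4 arrays at 24 h lay above both untransfected arrays and the 8 later arrays lay below both. How many of all probe sets had this order was not counted. Against untransfected cells ATF3 rose by 0.91 ± 0.20 in CTCF siRNA cells at 24 h (limma adjusted p = 0.0169), and the difference in control siRNA cells at 24 h was 0.66 ± 0.20 (limma adjusted p = 0.0727). The first of these calls rested on single arrays: without CTCF siRNA 24 h replicate 1 the difference was 0.70 (limma adjusted p = 0.144) and without untransfected replicate 1 it was 0.78 (limma adjusted p = 0.119). At 144 h ATF3 fell by 1.37 ± 0.20 in CTCF siRNA cells and by 1.42 ± 0.20 in control siRNA cells (limma adjusted p = 0.00143 and 0.00446). The control siRNA call at 144 h was lost without control siRNA 144 h replicate 2, where the difference was -1.21 (limma adjusted p = 0.0642).

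TRIB3, a pseudokinase induced by ATF4 and DDIT3 that restrains them in turn, was at 6.37 and 6.08 at 24 h, 6.30 and 6.41 at 72 h and 6.09 and 6.16 at 144 h in CTCF siRNA cells. In control siRNA cells it was at 6.23 and 6.18, 6.07 and 7.40, and 6.20 and 5.90, and in untransfected cells at 7.46 and 7.52. Apart from control siRNA 72 h replicate 2, at 7.40, the siRNA arrays lay at least 1 log2 unit below the untransfected ones. Over all siRNA groups TRIB3 fell by 1.20 ± 0.23 (SE, limma adjusted p = 0.00801).

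SESN2, a sestrin that senses leucine and restrains the growth kinase complex mTORC1, was at 7.44 and 7.26 at 24 h, 6.53 and 7.07 at 72 h and 6.72 and 6.91 at 144 h in CTCF siRNA cells. It was at 7.40 and 7.27, 6.44 and 7.80, and 6.53 and 6.59 in control siRNA cells, and at 7.23 and 7.46 in untransfected cells. The 4 arrays at 24 h sat within the untransfected range, 7 siRNA arrays lay below both untransfected arrays, and control siRNA 72 h replicate 2 lay above them. SESN2 passed the test in none of the comparisons, and its difference at 144 h was -0.53 ± 0.29 in CTCF siRNA cells and -0.79 ± 0.29 in control siRNA cells (limma adjusted p = 0.299 and 0.183).

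Of the metabolic enzymes, ASNS, which makes asparagine, was at 7.96 and 8.13 at 24 h, 8.33 and 8.37 at 72 h and 8.08 and 7.98 at 144 h in CTCF siRNA cells. It was at 8.02 and 7.89, 8.12 and 8.45, and 7.86 and 8.02 in control siRNA cells, and at 8.64 and 8.86 in untransfected cells. Over all siRNA groups ASNS fell by 0.65 ± 0.10 (SE, limma adjusted p = 0.00261), with all 12 siRNA arrays below both untransfected arrays.

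PCK2, the mitochondrial form of phosphoenolpyruvate carboxykinase, was at 5.72 and 6.13 at 24 h, 6.56 and 6.67 at 72 h and 6.17 and 6.03 at 144 h in CTCF siRNA cells. It was at 5.70 and 5.86, 6.31 and 6.86, and 6.08 and 6.16 in control siRNA cells, and at 7.08 and 6.93 in untransfected cells. PCK2 was lowest at 24 h, where it fell by 1.08 ± 0.17 in CTCF siRNA cells and by 1.23 ± 0.17 in control siRNA cells against untransfected cells (limma adjusted p = 0.00325 and 0.00173). At 72 h the difference was -0.39 ± 0.17 in CTCF siRNA cells and -0.42 ± 0.17 in control siRNA cells, and neither passed the test (limma adjusted p = 0.254 and 0.338). Without control siRNA 72 h replicate 2 the difference in control siRNA cells was -0.66 (limma adjusted p = 0.203).

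WARS1, which charges tRNA with tryptophan, gave the smallest p-value of the members over all siRNA groups. On its brighter probe set it was at 7.27 and 7.22 at 24 h, 7.27 and 7.27 at 72 h and 7.16 and 7.12 at 144 h in CTCF siRNA cells. It was at 7.15 and 7.12, 7.16 and 7.84, and 6.90 and 7.07 in control siRNA cells, and at 8.22 and 8.57 in untransfected cells. Leaving aside control siRNA 72 h replicate 2, at 7.84, the siRNA arrays filled a narrow band well below the untransfected cells. WARS1 fell by 1.18 ± 0.13 over all siRNA groups, a 2.27-fold lower signal (SE, limma adjusted p = 0.000488). Its second probe set differed in the same direction, by -0.56 (limma adjusted p = 0.0279).

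AARS1, which charges tRNA with alanine, was at 9.57 and 9.72 at 24 h, 9.55 and 9.48 at 72 h and 9.02 and 9.17 at 144 h in CTCF siRNA cells. In control siRNA cells it was at 9.61 and 9.60, 9.68 and 10.04, and 9.56 and 9.62, and in untransfected cells at 10.03 and 10.04. AARS1 lay lower on both CTCF siRNA arrays than on both control siRNA arrays at 72 h and at 144 h. The share of all probe sets with that order was not counted. Between these groups AARS1 was called at neither time (limma adjusted p = 0.493 and 0.0599). Over all siRNA groups it fell by 0.48 ± 0.09 (SE, limma adjusted p = 0.00794), and control siRNA 72 h replicate 2 was the single siRNA array that did not lie below both untransfected arrays.

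**Figure D1:**
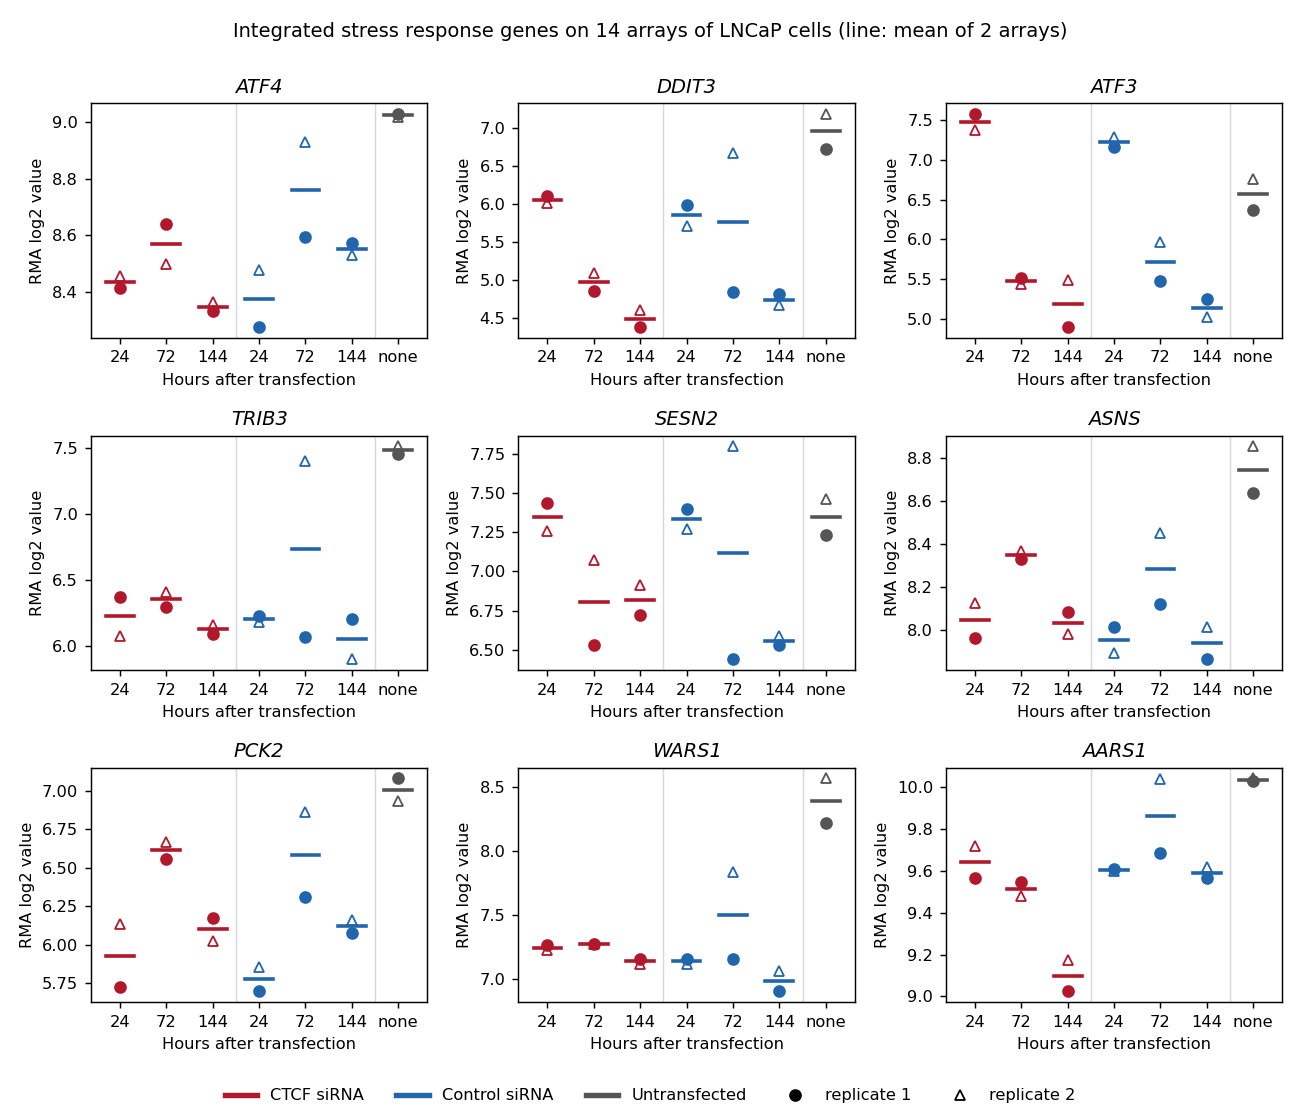
Log2 expression value of each of the 9 measured genes on each array, by siRNA and hours after the first transfection; untransfected cells are at the right of each panel. Filled circles are replicate 1, open triangles are replicate 2 and the line is the mean of the 2 arrays. Both untransfected arrays lie above every siRNA array for 6 of the genes, ATF3 is highest at 24 h, and replicate 2 of control siRNA at 72 h stands above replicate 1 in every panel.

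Each siRNA group was set against the untransfected arrays, a comparison that the design names. The members were lower in siRNA cells on average: 7 of 9 fell over all 6 siRNA groups, all but ATF3 and SESN2, where 4.58% of all probe sets were called lower and 9.63% were called in either direction. The median difference of the 9 members was -0.65, against 0.00154 over all probe sets. Every one of the 12 siRNA arrays lay below both untransfected arrays for 6 of the 9 members, DDIT3, PCK2, WARS1, ATF4, ASNS and TRIB3, and this held for 5.45% of all probe sets. The 2 untransfected arrays carry all of these comparisons: without untransfected replicate 1 or without replicate 2, the members called over all siRNA groups numbered 2. WARS1 was one of them each time, at -1.30 and -1.07 (limma adjusted p = 0.0133 and 0.0148). ASNS was called without replicate 1 and PCK2 without replicate 2. The differences of the others kept their size, for example -1.73 and -1.56 for DDIT3 and -1.16 and -1.25 for TRIB3. Without control siRNA 72 h replicate 2, an array singled out by the members themselves, the ATF3 difference was -0.56.

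At 24 h, 6 of 9 members were called in CTCF siRNA cells, where 9.25% of probe sets were called (3.83% lower), and 5 of 9 in control siRNA cells, where 7.57% were (3.58% lower). PCK2, WARS1, ATF4, ASNS and TRIB3 were lower in both, and ATF3 was the member that was higher in CTCF siRNA cells. In control siRNA cells WARS1 fell by 1.26 ± 0.17, TRIB3 by 1.28 ± 0.30, ASNS by 0.79 ± 0.13 and ATF4 by 0.65 ± 0.13 (limma adjusted p between 0.00177 and 0.0267). PCK2 and WARS1 stayed called at 24 h in both siRNA groups whichever array was left out. The other calls rested on single arrays: the count in CTCF siRNA cells was 2 without CTCF siRNA 24 h replicate 1 and 3 without its replicate 2 or either untransfected array, and the count in control siRNA cells was 2 without control siRNA 24 h replicate 2 and 3 without its replicate 1 or untransfected replicate 1.

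At 72 h, 4 of 9 members, DDIT3, WARS1, AARS1 and ATF3, were lower in CTCF siRNA cells, where 3.22% of probe sets were called (1.93% lower), and 0 of 9 were called in control siRNA cells, where 0.478% were. DDIT3 fell by 1.98 ± 0.38 and ATF3 by 1.08 ± 0.20 in CTCF siRNA cells (limma adjusted p = 0.0192 and 0.0169). That count was 1 without CTCF siRNA 72 h replicate 1 or untransfected replicate 1 and 0 without the other array of either group, with DDIT3 between -2.07 and -1.90. In control siRNA cells 6 members had an unadjusted limma p under 0.05, as did 1915 of all 16098 probe sets. The smallest adjusted p of a member was that of WARS1, 0.0536, at -0.89 ± 0.17. Without control siRNA 72 h replicate 2, DDIT3 fell by 2.08, TRIB3 by 1.45 and WARS1 by 1.20. Since the members were high on the array left out, larger falls without it follow from the choice and are no test. The ATF3 difference was -0.84 with both arrays (limma adjusted p = 0.112) and -1.04 without replicate 2. With replicate 2 alone in that group, the DDIT3 difference was -0.32.

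At 144 h, 8 of 9 members fell in CTCF siRNA cells, all but SESN2, where 11.1% of probe sets were called (4.79% lower). In control siRNA cells 6 of 9 fell, namely DDIT3, PCK2, WARS1, ATF3, ASNS and TRIB3, where 4.14% of probe sets were called (2.1% lower). All 9 differences were negative in both, with medians of -0.94 in CTCF siRNA cells and -0.89 in control siRNA cells. WARS1 fell by 1.26 ± 0.17 in CTCF siRNA cells and by 1.41 ± 0.17 in control siRNA cells (limma adjusted p = 0.000983 and 0.00233). TRIB3 fell by 1.36 ± 0.30 in CTCF siRNA cells and by 1.43 ± 0.30 in control siRNA cells (limma adjusted p = 0.0148 and 0.0249). DDIT3, WARS1, AARS1, ATF4 and ATF3 in CTCF siRNA cells and WARS1 in control siRNA cells stayed called whichever array was left out. The count in CTCF siRNA cells was 5 without CTCF siRNA 144 h replicate 2. The count in control siRNA cells was 1 without control siRNA 144 h replicate 2 and 3 without its replicate 1 or without either untransfected array. The comparisons at the 3 times share the 2 untransfected arrays, so their directions are not separate evidence.

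**Figure D2:**
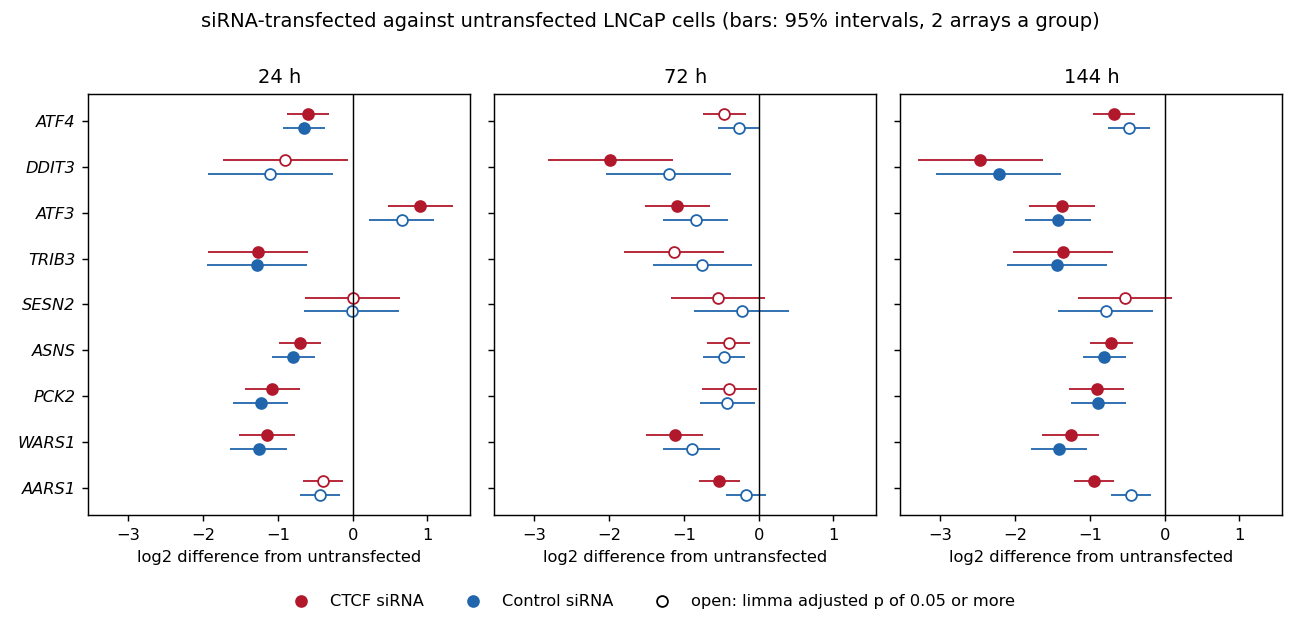
Log2 difference from untransfected cells for each of the 9 genes at 24, 72 and 144 h, with CTCF siRNA above control siRNA in each pair of points; bars are 95% intervals from limma and open circles did not pass an adjusted p of 0.05. Intervals lie below 0 for most genes at 24 and 144 h, those of control siRNA at 72 h lie nearer to 0 for most genes, and ATF3 is to the right of 0 at 24 h.

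Change with time was tested within control siRNA cells. The 144 h cells had been split and transfected again at 72 h, so time and that step cannot be told apart at 144 h. ATF3 was the single member called: it fell by 1.50 ± 0.20 at 72 h against 24 h (limma adjusted p = 0.0434, 0.087% of probe sets called, 0.0311% lower) and by 2.08 ± 0.20 at 144 h against 24 h, a 4.23-fold lower signal (limma adjusted p = 0.0039, 0.248% of probe sets called, 0.112% lower). The 72 h call was fragile, since leaving out any single array of the 12 raised its adjusted p to between 0.0545 and 0.272, and it was also lost with a replicate block of their own for the 24 h arrays (limma adjusted p = 0.0651) and with arrays centred on their medians (limma adjusted p = 0.0524). That block was tried because arrays titled replicates 1 and 2 at 24 h carry 3 and 4 in their codes, so their pairing with the later arrays is in doubt. The call at 144 h was lost without either control siRNA 24 h array (limma adjusted p = 0.0777 and 0.0635) and without control siRNA 144 h replicate 2 (limma adjusted p = 0.0568). Between 144 h and 72 h, 0 members were called by limma and 0% of probe sets were. An unadjusted limma p under 0.05 was found for 5 members and for 1000 of all 16098 probe sets. Those 5 did not keep it without control siRNA 72 h replicate 2. The same contrasts in CTCF siRNA cells were added after the data had been seen. There ATF3 fell by 1.99 ± 0.20 at 72 h and by 2.28 ± 0.20 at 144 h against 24 h (limma adjusted p = 0.00936 and 0.000434), and AARS1 fell by 0.55 ± 0.12 at 144 h against 24 h (limma adjusted p = 0.0421). The ATF3 call at 144 h held whichever of the 12 arrays was left out, and that at 72 h was lost without CTCF siRNA 24 h replicate 1 or 2 or CTCF siRNA 72 h replicate 2, where the difference was -1.80, -2.18 and -1.87. In these comparisons 0.447% and 3.39% of probe sets were called. Between 144 h and 72 h the ATF3 difference in CTCF siRNA cells was -0.28 ± 0.20 (limma adjusted p = 0.657), and 0 members were called, where 0.832% of probe sets were. An unadjusted limma p under 0.05 was found there for 3 members and for 1857 of all 16098 probe sets. DDIT3 at 144 h against 24 h differed by -1.57 ± 0.40 in CTCF siRNA cells and by -1.11 ± 0.40 in control siRNA cells and was not called in either (limma adjusted p = 0.0681 and 0.344).

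Between CTCF siRNA and control siRNA cells, the comparison that asks what lowering CTCF does, no member passed the test at any time. At 24 h, 0 of 9 members were called, where 0.0124% of probe sets were. An unadjusted limma p under 0.05 was found for 0 members and for 971 of all 16098 probe sets. At 72 h, 0 of 9 were called, where 0.186% of probe sets were. AARS1 was the single member with an unadjusted limma p under 0.05, against 1292 of all 16098 probe sets. It did not keep that p without control siRNA 72 h replicate 2. At 144 h, 0 of 9 were called, where 3.76% of probe sets were. AARS1 alone had an unadjusted limma p under 0.05, against 2633 of all 16098 probe sets. For the mean over the 3 times, 0 of 9 were called with or without that array, where 2.58% of probe sets were with it.

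AARS1 came closest. Its difference was 0.04 ± 0.12 at 24 h, -0.35 ± 0.12 at 72 h and -0.49 ± 0.12 at 144 h, the last a 1.41-fold lower signal (limma adjusted p = 0.997, 0.493 and 0.0599, 2 arrays against 2). The difference at 72 h was -0.20 ± 0.14 without control siRNA 72 h replicate 2 (limma adjusted p = 0.919). At 144 h its adjusted p ranged between 0.00922 and 0.153 over the alternative settings that kept every array, and it was under 0.05 in 4 of them. The test of whether the AARS1 difference at 144 h departed from that at 24 h gave -0.53 ± 0.17 (limma adjusted p = 0.283, 0.795% of probe sets called). None of the 9 members was called in any of the 3 tests of a change in the CTCF difference with time, in which 0%, 0.795% and 0.0186% of probe sets were called. AARS1 at 144 h against 24 h was the single member with an unadjusted limma p under 0.05, against 1732 of all 16098 probe sets.

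DDIT3 had the largest difference at 72 h, -0.78 ± 0.40, and it rested on the array that stood apart. Without control siRNA 72 h replicate 2 the difference was 0.13, and without replicate 1 it was -1.70 (limma adjusted p = 0.0268). For the remaining members the 95% intervals bound what these arrays allow: at 144 h the difference lay between -0.23 and 0.54 for WARS1, -0.37 and 0.34 for PCK2, -0.20 and 0.38 for ASNS, -0.49 and 0.09 for ATF4, and -0.39 and 0.50 for ATF3. The intervals of TRIB3 (-0.64 to 0.79), SESN2 (-0.42 to 0.93) and DDIT3 (-1.14 to 0.64) were wider. Limma takes the spread of a gene from all groups fitted, so these widths do not measure the spread at 144 h alone. Between the control siRNA 72 h arrays TRIB3, SESN2 and DDIT3 differed by 1.34, 1.36 and 1.83. Their SDs at 144 h were 0.05, 0.14 and 0.16 in CTCF siRNA cells and 0.21, 0.04 and 0.11 in control siRNA cells. A p-value that misses the threshold does not show that CTCF siRNA left these genes alone.

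**Figure D3:**
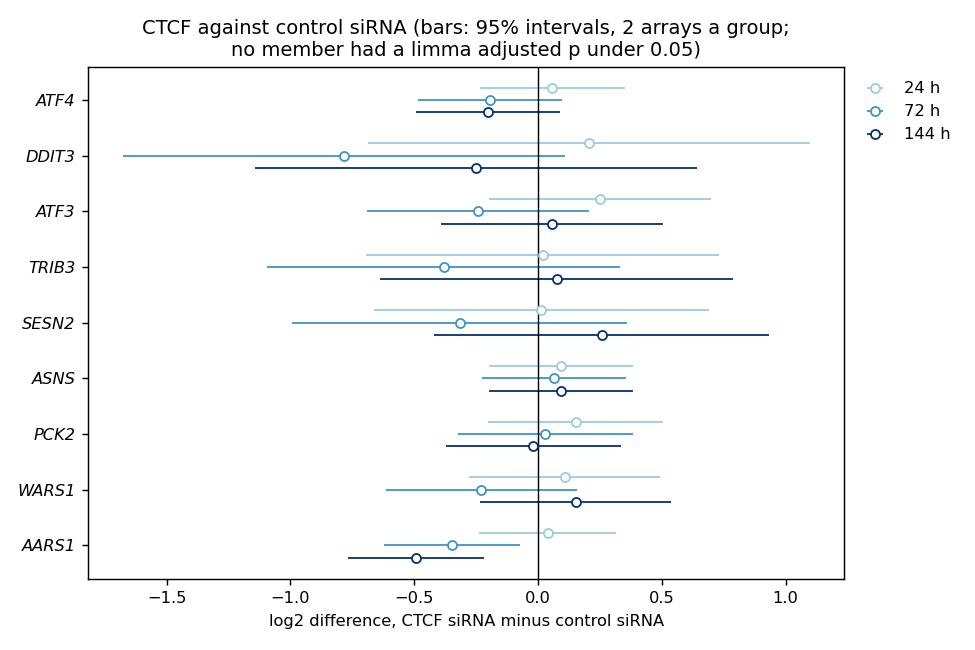
Log2 difference between CTCF siRNA and control siRNA cells for each of the 9 genes at 24, 72 and 144 h, with 95% intervals from limma. Most points lie near 0 and most intervals span 0, while the AARS1 intervals at 72 h and 144 h lie below it, although its adjusted p at 144 h was 0.0599 and its difference at 72 h was -0.20 without control siRNA 72 h replicate 2.

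The paralogues of the members were read on the same arrays. Of the 5 with a named probe set (PCK1, TRIB1, TRIB2, SESN1 and SESN3), 0 fell at 144 h in either siRNA group against untransfected cells, and their medians were 0.06 in CTCF siRNA cells and 0.02 in control siRNA cells. Of all probe sets, 4.79% in CTCF siRNA cells and 2.1% in control siRNA cells were called lower there. At those shares 0 of 5 does not set the paralogues apart. TRIB1, a relative of TRIB3 that directs C/EBP factors to degradation, rose by 0.93 in CTCF siRNA against control siRNA cells at 144 h (limma adjusted p = 0.0082), where the TRIB3 difference was 0.08 ± 0.32. SESN3 fell by 0.56 in CTCF siRNA cells and by 0.59 in control siRNA cells at 24 h against untransfected cells (limma adjusted p = 0.0133 and 0.0112).

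Of 7 other measured genes induced by ATF4 or DDIT3, 5 were lower in CTCF siRNA cells and 4 in control siRNA cells at 24 h against untransfected cells, 1 in CTCF siRNA and 0 in control siRNA cells at 72 h, and 2 in each at 144 h. Of all probe sets, 3.83% at 24 h, 1.93% at 72 h and 4.79% at 144 h were called lower in CTCF siRNA cells. In control siRNA cells 3.58% at 24 h and 2.1% at 144 h were called lower, and 0.478% at 72 h were called in either direction. At 24 h GDF15, a secreted stress cytokine, fell by 1.05 in CTCF siRNA cells and by 1.16 in control siRNA cells (limma adjusted p = 0.00569 and 0.0036). STC2, a secreted glycoprotein, fell by 0.96 in CTCF siRNA cells and by 1.08 in control siRNA cells, and DDIT4, an inhibitor of mTORC1, fell by 0.65 in CTCF siRNA cells and by 0.87 in control siRNA cells (limma adjusted p at most 0.0429). Of the 7 measured regulators of eIF2, EIF2AK4 (GCN2, the kinase that senses uncharged tRNA) and EIF2AK3 (PERK, the kinase of the endoplasmic reticulum) were called in CTCF siRNA cells at 144 h. Against untransfected cells 11.1% of all probe sets were called in either direction there. EIF2AK4 rose by 0.72 and EIF2AK3 fell by 0.77 there against untransfected cells (limma adjusted p = 0.0022 and 0.0154). EIF2AK4 was also higher in CTCF siRNA than in control siRNA cells at 144 h, by 0.46 (limma adjusted p = 0.0495), where 3.76% of probe sets were called. That p lay just under the threshold, and the call was not followed under the alternative settings.

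The cytosolic tRNA synthetases were read as known ATF4 targets and others. All 10 known targets other than WARS1 and AARS1 had negative differences against untransfected cells at 24 h and at 144 h in both siRNA groups. Of these 10, 5 fell at each of those times in CTCF siRNA cells, and 5 at 24 h and 4 at 144 h fell in control siRNA cells, while 0 were called at 72 h in either. Of all probe sets, 3.83% at 24 h and 4.79% at 144 h were called lower in CTCF siRNA cells, and 3.58% and 2.1% in control siRNA cells. At 72 h 3.22% in CTCF siRNA cells and 0.478% in control siRNA cells were called in either direction. SARS1 led at 24 h, falling by 0.84 in CTCF siRNA cells and by 0.99 in control siRNA cells (limma adjusted p = 0.0049 and 0.00216), followed by GARS1, which fell by 0.66 in CTCF siRNA cells and by 0.74 in control siRNA cells (limma adjusted p = 0.0157 and 0.00979). Of 5 measured synthetases outside that set, 0 were called at any time, and their medians at 144 h were -0.06 in CTCF siRNA cells and 0.06 in control siRNA cells. At most 11.1% of all probe sets were called in either direction at a time, so 0 of 5 does not set them apart. The TGATGNAA core stood in the promoter windows of 6 of 8 targets with a window and of 0 of 6 others. Since targets are in part known as such through this element, that contrast is a description. The difference between the 2 sets of synthetases was not tested.

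Of 8 measured genes of amino acid and one-carbon synthesis, 4 were lower in each siRNA group at 24 h, and 3 in CTCF siRNA and 0 in control siRNA cells at 144 h. The shares of all probe sets called lower were 3.83% at 24 h and 4.79% at 144 h in CTCF siRNA cells, and 3.58% and 2.1% in control siRNA cells. CTH, which makes cysteine, fell by 0.97 in CTCF siRNA cells and by 1.26 in control siRNA cells at 24 h (limma adjusted p = 0.0162 and 0.00485). MTHFD1L, an enzyme of mitochondrial one-carbon metabolism, fell by 1.26 in CTCF siRNA cells at 144 h (limma adjusted p = 0.000871), and its difference in control siRNA cells was -0.55 (limma adjusted p = 0.102).

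**Figure D4:**
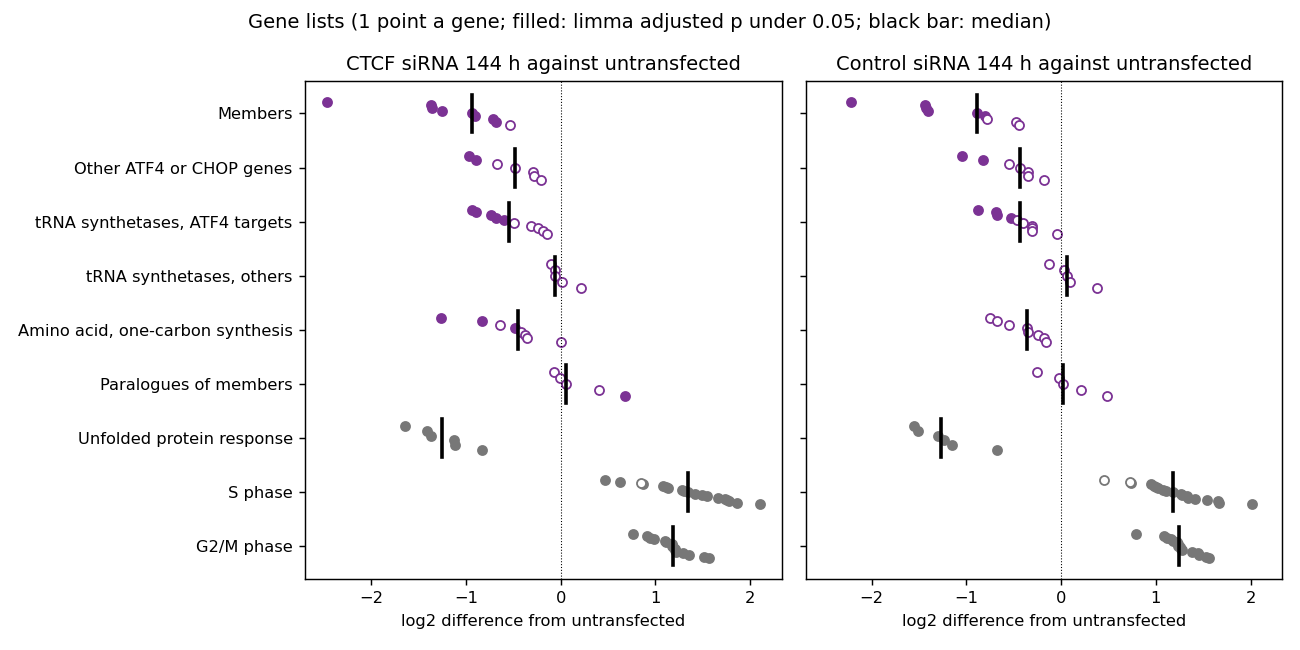
Log2 difference from untransfected cells at 144 h for every measured gene of 9 lists, in CTCF siRNA cells (left) and control siRNA cells (right); filled points passed a limma adjusted p of 0.05 and black bars are list medians. The members, other ATF4 or CHOP genes and the synthetases that are ATF4 targets lie left of 0, the remaining synthetases and the paralogues lie around 0, unfolded protein response genes lie farther left and S phase and G2/M genes lie to the right.

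Against untransfected cells, unfolded protein response genes differed in the direction of the members, and cell cycle genes in the opposite direction. Targets of the endoplasmic reticulum sensors ATF6 and XBP1 were lower against untransfected cells at 144 h for 6 of 6 measured genes in CTCF siRNA cells (median -1.25) and 6 of 6 in control siRNA cells (median -1.27). HYOU1, a chaperone of the endoplasmic reticulum, fell by 1.64 in CTCF siRNA cells and by 1.55 in control siRNA cells (limma adjusted p = 0.00219 and 0.00889). Genes of S phase were higher at 144 h for 18 of 19 in CTCF siRNA cells (median 1.35) and 17 of 19 in control siRNA cells (median 1.19), and genes of G2/M for 16 of 16 in both. Of all probe sets at 144 h, 11.1% were called in either direction in CTCF siRNA cells (4.79% lower), and 4.14% in control siRNA cells (2.1% lower). The mean level of the S phase genes, each centred over the 14 arrays, lay between -0.35 and 0.49 on the siRNA arrays and at -1.16 and -0.98 on the untransfected arrays, with no overlap. In such bulk RNA, fewer cells in a state and less RNA per cell cannot be told apart, and the part of cell cycle or density in the member differences was not tested.

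On control siRNA 72 h replicate 2 the mean of the 9 members, centred in the same way, was 0.52, against -0.28 on replicate 1 and 0.62 and 0.79 on the untransfected arrays. The mean of the unfolded protein response genes was 0.80 on it, against -0.29 on replicate 1. The S phase mean was -0.28 on replicate 2, against 0.09 on replicate 1, and the G2/M mean was -0.32 on replicate 2, against 0.10 on replicate 1. On CTCF siRNA 72 h replicate 2 the S phase mean was -0.35 and the G2/M mean -0.44, and the members averaged -0.10. The part of the unfolded protein response or the cell cycle in the member values of that array was not tested.

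**Figure D5:**
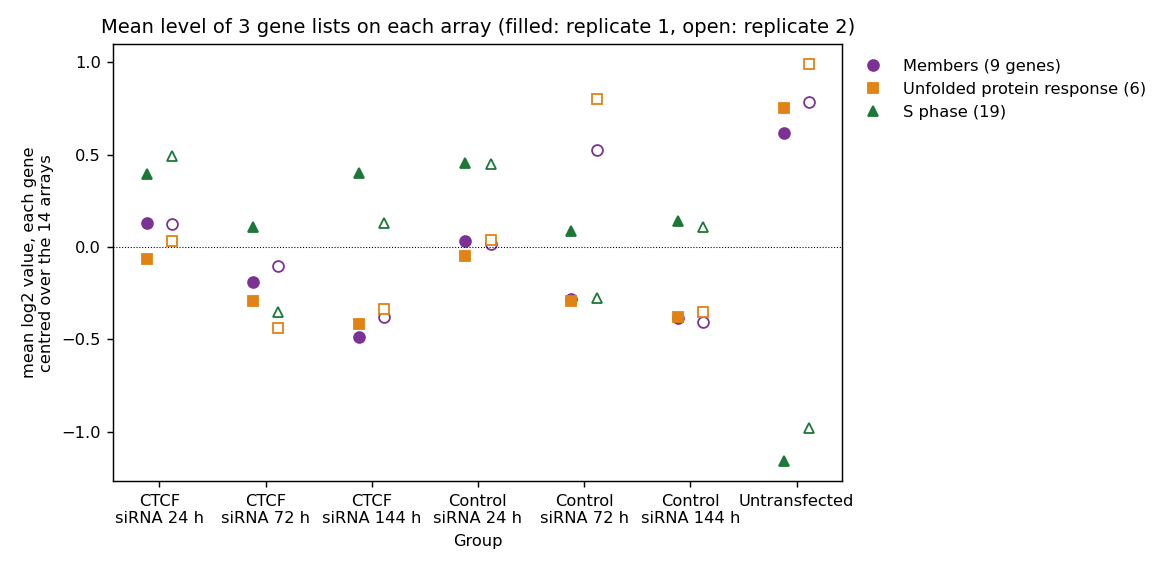
Mean log2 value of the 9 members, 6 unfolded protein response genes and 19 S phase genes on each of the 14 arrays, each gene centred over the arrays; filled symbols are replicate 1 and open symbols replicate 2. The members and the unfolded protein response genes are high in untransfected cells and on replicate 2 of control siRNA at 72 h, and S phase genes are lowest in untransfected cells.

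Across the 14 arrays, each member was compared with the mean of the other members. Pearson's r was 0.96 for DDIT3, 0.86 for WARS1 and TRIB3, 0.82 for AARS1, 0.75 for SESN2, 0.73 for ASNS, 0.72 for ATF4, 0.49 for PCK2 and 0.38 for ATF3. With the array of control siRNA 72 h replicate 2 left out, r lay between 0.42 (PCK2) and 0.96 (DDIT3) over 13 arrays. Among 7615 other genes, the 8 whose pattern was most like the mean of the members were HYOU1 (r = 0.98), HDLBP (0.96), CRELD2 (0.95), DERL2 (0.95), TSPYL2 (0.95), ESYT1 (0.95), RNF144B (0.95) and ANKHD1-EIF4EBP3 (0.94). HYOU1, CRELD2 and DERL2 encode proteins of the endoplasmic reticulum. These correlations are descriptions over 14 arrays that share the differences between 7 groups.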

How the data were processed

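RNA of 14 LNCaP samples was measured on Affymetrix Human Gene 2.0 ST arrays. The authors deposited log2 values per probe set, background-corrected, quantile-normalised and summarised by robust multi-array average (RMA), with R 3.2.5, RMA and limma named in the submitters' processing notes; the chip files were not used here. Such normalisation assumes like distributions on all arrays, so a global shift would not be seen. Arrays carry no read depth, and their number limits the precision.

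Of 53617 rows, 16098 carried 1 gene symbol in the platform annotation and were tested; 37519 rows carried no name there. Gene names were matched to RefSeq (GRCh38.p14) by identifier, and 16098 probe sets were found. Differences were fitted with limma 3.58.1 in R 4.3.3 (lmFit, eBayes, two-sided), with the group and the replicate number of the titles as terms. Contrasts among siRNA groups used the 12 siRNA arrays, and those with untransfected cells all 14. P-values were adjusted by Benjamini-Hochberg over 16098 probe sets within each comparison, not across comparisons, and a gene was called at an adjusted p under 0.05. The scripts were tested on simulated data.

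The replicate number was kept as a block because the study's methods enter the pairing of replicates. Over 21 pairs of groups, deviations of same-numbered arrays correlated between -0.09 and 0.23, and 2 pairs exceeded 0.1. The study calls the arrays biological duplicates, and p-values measure only the spread between these arrays.

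All members were named. A gene with several probe sets was represented by the one with the highest mean. Other lists were described by counts and medians, naming called genes by size and any paralogue, ATF4 or CHOP target or eIF2 kinase; genes most like the members were the 8 with the highest Pearson correlation among genes at or above the median level. Members and lists were chosen with earlier results of these data known. Of the lists, mitochondrial tRNA synthetases and amino acid transporters had 0 genes with a named probe set and were not analysed here. Alternatives were no block, a separate block for the 24 h arrays, trended or robust eBayes, array weights, median centring, all rows, brighter probe sets only, 1 probe set a gene, all 14 arrays, and leaving out each array in turn.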

Additional observations from a re-analysis of the deposited data

Results flagged for a closer look

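ATF3 differed from untransfected cells by an amount that depended on the time after control siRNA. The difference at 72 h minus that at 24 h was -1.50 (limma adjusted p = 0.0434), and the difference at 144 h minus that at 24 h was -2.08 (limma adjusted p = 0.0039). Both are the tests of ATF3 between times in control siRNA cells, since the untransfected arrays cancel. At 144 h, time cannot be told apart from the splitting and further transfection of the cells at 72 h. Its difference was positive at 24 h, 0.66, and negative at 72 h and 144 h, -0.84 and -1.42. Without control siRNA 72 h replicate 2 the difference at 72 h was -1.04, and that at 72 h minus that at 24 h was -1.73 (limma adjusted p = 0.272).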

How the results depend on the processing

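No difference of a called member changed sign under any alternative. Of 374 values of called members under other settings, 357 stayed past the threshold and 17 did not, 13 of them when all rows of the table were tested. Without the replicate block 0 of 41 such calls were lost and the counts of members called were the same in all comparisons, for example 8 for CTCF siRNA at 144 h, 6 for control siRNA at 144 h and 7 over all siRNA groups against untransfected cells. For CTCF against control siRNA the members called at 144 h became 1, AARS1, with an intensity trend, with brighter probe sets, with array weights and with all 14 arrays, and the mean over times became 1, AARS1, with a trend and with brighter probe sets. For control siRNA at 72 h against untransfected cells the count became 2 (WARS1 and ATF3) with a trend and with brighter probe sets and 1 (WARS1) with 1 probe set a gene. With all rows tested it became 3 for CTCF siRNA at 24 h and 1 for CTCF siRNA at 72 h against untransfected cells, and 0 for ATF3 between 24 h and 72 h or 144 h of control siRNA; more rows share the adjustment there. Control siRNA at 72 h against 24 h became 0 with a separate 24 h block or median centring, and 2 with a trend or brighter probe sets, where PCK2 joined ATF3; the cause was not tested.

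Leaving out 1 array in turn, with a lone array assumed to vary like the other groups, moved the members called to between 2 and 7 for control siRNA at 24 h, 0 and 3 at 72 h and 1 and 7 at 144 h against untransfected cells, between 2 and 7, 0 and 5, and 5 and 8 for CTCF siRNA at these times, and between 2 and 8 over all siRNA groups. For CTCF against control siRNA it gave 0 at 24 h and 144 h, 0 to 1 at 72 h and for the mean (DDIT3, without control siRNA 72 h replicate 1), and 0 in the tests of change. Within control siRNA it gave 0 at 72 h against 24 h, 0 to 2 at 144 h against 24 h and 0 to 1 at 144 h against 72 h. With 2 arrays a group, the median standard error of CTCF against control siRNA at 144 h was 0.14 on the log2 scale. It was 0.40 for DDIT3, 0.32 for TRIB3 and 0.30 for SESN2, with the spread taken from all groups fitted, control siRNA at 72 h included. Differences several times their standard error could still miss the threshold, as AARS1 did at -0.49 ± 0.12.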
